A study of Mus musculus with 2 samples.

Results

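The genes described here are the 10 that carry the VEGF and angiopoietin signals of growing blood vessels: the ligands Vegfa and Vegfc, the receptors Kdr, Flt1 and Flt4, the co-receptor Nrp1, the angiopoietins Angpt1 and Angpt2, and the receptors Tek and Tie1. They were taken by symbol from a feature list of 32285 genes, a choice made with earlier results of these data known. All 10 passed the filter on low counts. The material was whole kidney of newborn mice (P0), read as 2 single-cell 3′ libraries of the genotype Rbpj c/+ ; Foxd1cre/+. In both, 1 of the 2 copies of the Notch effector gene Rbpj is a conditional allele and Cre is driven from Foxd1, a gene of the stromal progenitors that give rise to kidney stroma and mural cells. All groups described below share this genotype, and since a second genotype was not analysed here, its effect is not measured. The labels do not say whether the libraries came from separate animals. The p-values therefore measure only how far differences between classes varied between these 2 samples, a spread that may be technical.

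VEGF-A, secreted by epithelia next to capillaries, signals through KDR on endothelial cells, while FLT1 binds it tightly and largely holds it back from KDR. VEGF-C acts mainly through FLT4 and is best known for lymphatic growth, and NRP1 presents VEGF to KDR and also binds class 3 semaphorins. ANGPT1 activates the endothelial receptor TEK and steadies vessels, ANGPT2 can oppose it, and TIE1 pairs with TEK. In the glomerulus, the podocyte is the textbook source of VEGF-A for the capillary endothelium that it covers.

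A barcode counted as a cell when it reached 3000 UMIs and 500 genes with no more than 20% of its UMIs mitochondrial, which left 5529 cells in replicate 1 and 4206 in replicate 2, with medians of 15016 and 20007.5 UMIs; the libraries shared 6 cell barcodes. Cells were assigned to types by lists of marker genes that contained none of the 10 genes: a marker was present at 20 CPM (UMIs per 1000000 of the cell's UMIs), a cell needed 3 markers of a type, and the share of that type's markers present had to be 2 times that of any other type. In replicates 1 and 2 this gave 358 and 188 podocytes, 1068 and 1012 tubular cells, 420 and 270 stromal cells, 142 and 120 mural cells, and 704 and 606 endothelial cells. In all, 4888 of 9735 cells fell in these 5 classes and 3313 cells were assigned to no type. Levels below are CPM of the summed UMIs of a class in a library, so each is a share of that class's RNA and not an amount per cell. No marker of a class's own list was at 0 in it. The endothelial list summed to 4406 and 4682 CPM in endothelial cells, to 12.9 and 21.1 CPM in podocytes and to 158 and 137 CPM in mural cells. Mural and stromal cells were less separate: the stromal list summed to 1551 and 1730 CPM in mural cells against 3125 and 3052 CPM in stromal cells, and the mural list to 429 and 975 CPM in stromal cells against 13768 and 13981 CPM in mural cells. The podocyte list summed to 272 and 423 CPM in mural cells, and 78 of 142 and 73 of 120 mural cells exceeded the next type by under 2.5 times. The podocyte list summed to 488 and 371 CPM in endothelial cells, of which the single gene Thsd7a gave 430 and 332 CPM. As a background, the level of each gene was also taken in barcodes under 100 UMIs, which hold mostly RNA from outside cells. Such free RNA is only a part of a class's counts, so a level under this background is not by itself background. Its share in the 5 classes was put at 1.58% to 4.34% by the lowest of 6 kidney genes. By haemoglobin it was put at 0.504% to 57.1%. Those barcodes also held transcripts foreign to the cells, with the lung gene Sftpc at 3370 CPM in replicate 1 and the muscle gene Ttn at 853 CPM in replicate 2. In the 5 classes Sftpc did not exceed 0.816 CPM, nor Ttn 2.37 CPM.

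In GENCODE M21 on GRCm38, Vegfa lies at chr17:46016993-46032369 on the minus strand and Vegfc at chr8:54077606-54187096 on the plus strand. Of the receptors, Kdr lies at chr5:75932827-75978458 (minus), Flt1 at chr5:147561604-147726011 (minus), Flt4 at chr11:49609263-49652739 (plus) and Nrp1 at chr8:128358604-128503363 (plus). Angpt1 lies at chr15:42424723-42676977 (minus), Angpt2 at chr8:18690263-18741562 (minus), Tek at chr4:94739289-94874976 (plus) and Tie1 at chr4:118471191-118490061 (minus). Counts were deposited per gene, so no exon or UTR was told apart. The annotation used in counting is not given in the sources used here, and its gene bodies may differ from these.

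Vegfa, high in podocytes, and the receptors high in endothelium carry the main contrast between classes. The sequence just upstream is shown for Vegfa and for 3 of these receptors. The RefSeq windows of Tie1 and Flt4 lay mostly or wholly inside the GENCODE gene body, so neither is shown. The sequences are the part of the RefSeq promoter window (GRCm38.p6) that lies before both the RefSeq start and the GENCODE M21 gene body, written 5′ to 3′ on the gene's strand, with GGAAG or its reverse complement CTTCC, the core of sites for ETS factors, in capitals. They lie at chr17:46032378-46032627 (minus strand) for Vegfa, chr5:75978459-75978705 (minus strand) for Kdr, chr5:147726012-147726261 (minus strand) for Flt1 and chr4:94739039-94739288 (plus strand) for Tek.
Vegfa: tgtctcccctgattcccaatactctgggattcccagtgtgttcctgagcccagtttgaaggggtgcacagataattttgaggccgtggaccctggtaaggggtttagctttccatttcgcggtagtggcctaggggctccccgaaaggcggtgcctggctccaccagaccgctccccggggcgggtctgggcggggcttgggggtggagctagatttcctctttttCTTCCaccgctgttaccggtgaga
Kdr: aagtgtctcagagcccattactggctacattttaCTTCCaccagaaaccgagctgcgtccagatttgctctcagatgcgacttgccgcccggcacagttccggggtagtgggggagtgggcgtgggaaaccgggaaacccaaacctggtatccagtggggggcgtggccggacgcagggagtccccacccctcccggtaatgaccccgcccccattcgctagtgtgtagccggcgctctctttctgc
Flt1: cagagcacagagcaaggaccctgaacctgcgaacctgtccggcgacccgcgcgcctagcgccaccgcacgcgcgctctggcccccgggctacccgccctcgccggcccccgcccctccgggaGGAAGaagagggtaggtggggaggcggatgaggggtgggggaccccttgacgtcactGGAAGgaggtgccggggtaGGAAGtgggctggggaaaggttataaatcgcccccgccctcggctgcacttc
Tek: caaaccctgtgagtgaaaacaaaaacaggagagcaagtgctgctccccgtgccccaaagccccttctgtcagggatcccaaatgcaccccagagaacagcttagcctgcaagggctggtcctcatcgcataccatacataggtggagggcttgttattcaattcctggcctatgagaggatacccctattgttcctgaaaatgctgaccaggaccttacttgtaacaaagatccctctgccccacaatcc
On either strand, GGAAG occurred 3 times before Flt1, 1 time before Kdr, 1 time before Vegfa and 0 times before Tek. Of 32851 RefSeq windows of 250 bases, 64.1% held it at least once and 10.7% at least 3 times, so 1 match is common. The 3 endothelial genes shown differed in how many they held. Over the whole RefSeq window of 300 bases, which reaches into the gene body, Tie1 held 7 matches and Flt4 held 1. The window of Flt1 alone of these 4 held TATAAA, found in 12.4% of windows, and that of Vegfa alone held GATAA, found in 22.6%. ACGTG, a form of the hypoxia-response core, was in none of the 4, against 16.6% of windows, and the form GCGTG was not counted. These matches describe letters and not factor binding, and absence from a window says nothing of a factor.

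Vegfa was a podocyte transcript with a lower, graded presence along the tubule. Its level in podocytes was 540 CPM in replicate 1 and 498 CPM in replicate 2, in tubular cells 43.2 and 52.6 CPM, in stromal cells 21.3 and 20.1 CPM, in mural cells 16.3 and 12.3 CPM and in endothelial cells 9.06 and 8.86 CPM. The libraries of these classes did not overlap, so the order was podocyte, tubular, stromal, mural and endothelial in both. Against tubular cells, the next class, podocytes were 11-fold higher (log2 3.46 ± 0.15 SE, adjusted p = 3.49e-08; edgeR quasi-likelihood test on the class sums with library as a block, Benjamini-Hochberg adjustment over all genes tested, 0.05 as the threshold). Thinned to 3000 UMIs per cell, 77.4% and 74.5% of podocytes held a Vegfa UMI, against 10.9% and 14.1% of tubular cells and 2.98% and 2.64% of endothelial cells. Unthinned, the shares were 96.4% and 98.9% of podocytes at median depths of 9218 and 14041 UMIs, and 11.5% and 14.0% of endothelial cells at 10777.5 and 13177 UMIs. In barcodes under 100 UMIs Vegfa stood at 71.5 and 82.3 CPM. The podocyte level was 755% and 606% of that, while the other classes lay under it: tubular cells at 60.4% and 63.9%, stromal cells at 29.8% and 24.4%, mural cells at 22.8% and 14.9% and endothelial cells at 12.7% and 10.8%.

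Among the marker-gated tubular segments, Vegfa was highest in the intercalated cells that secrete acid or base, with 64.8 and 75.1 CPM, followed by loop of Henle or distal cells with 49.1 and 64.7 CPM, proximal cells with 37.6 and 42.5 CPM and ureteric or collecting duct cells with 30.3 and 30.7 CPM. The ranges of neighbours touched only between the collecting duct and the early nephron, which read 27.4 and 31.6 CPM. The intercalated class held just 37 and 29 cells, and its 64.8 CPM barely exceeded the 64.7 CPM of loop or distal cells. In each library all these segment levels lay under the 71.5 and 82.3 CPM of barcodes under 100 UMIs. Free RNA was put at 1.58% and 1.95% of all tubular counts by 6 kidney genes, and at 6.05% and 2.07% by haemoglobin. Loop or distal cells stood 0.76 ± 0.14 (log2, SE; adjusted p = 0.000155) above the mean of proximal and collecting duct cells, and collecting duct cells stood at -0.90 ± 0.15 against the mean of proximal and loop or distal cells (adjusted p = 6.09e-05). Mitochondrial content moved with this order: the median mitochondrial share was 12.6% and 11.7% of UMIs in loop or distal cells, 8.73% and 8.02% in proximal cells and 7.62% and 7.35% in collecting duct cells. With cells limited to 10% mitochondrial UMIs, the loop or distal difference was 0.36 (adjusted p = 0.142), and that of all tubular cells against the other classes went from 0.45 (adjusted p = 0.00546) to 0.056 (adjusted p = 0.701).

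Vegfc, by contrast, was highest in endothelium, and within it in the cells that carried arterial markers. Its level was 133 and 86.8 CPM in endothelial cells, 16.2 and 19.7 CPM in stromal cells, 19.2 and 18.9 CPM in mural cells, 7.43 and 4.74 CPM in tubular cells and 4.08 and 2.51 CPM in podocytes. Endothelial cells were above every other class in both libraries, and stromal and mural cells overlapped. The endothelial level was 12.3-fold the mean of the other 4 classes (log2 3.62 ± 0.14 SE, adjusted p = 1.12e-08; here and below such a mean is taken on the log2 scale). Endothelial cells were then divided by markers into an arterial-marked group (at least 2 of Gja5, Gja4, Sox17, Bmx and Gkn3) and, among the rest, cells with at least 300 CPM of Plvap, which builds the diaphragms of peritubular fenestrae, and cells below it. Of these groups, the arterial-marked cells also held the most Ehd3, a gene known from glomerular endothelium. It read 356 and 349 CPM there, against 251 and 151 CPM in Plvap-low and 57.4 and 80.2 CPM in Plvap-high cells. Their name therefore gives the rule only, and the part of glomerular endothelium in their values was not tested. Vegfc read 333 and 280 CPM in arterial-marked cells, 13.6 and 15.8 CPM in Plvap-low cells and 11.7 and 5.41 CPM in Plvap-high cells. The arterial-marked level was 35.4-fold that of Plvap-high cells (log2 5.15 ± 0.32 SE, adjusted p = 1.35e-09). It was uneven between cells: the top 10% of arterial-marked cells held 74.0% and 51.7% of the Vegfc counts, and the highest cell in replicate 1 alone held 237 of 1510.

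**Figure D1:**
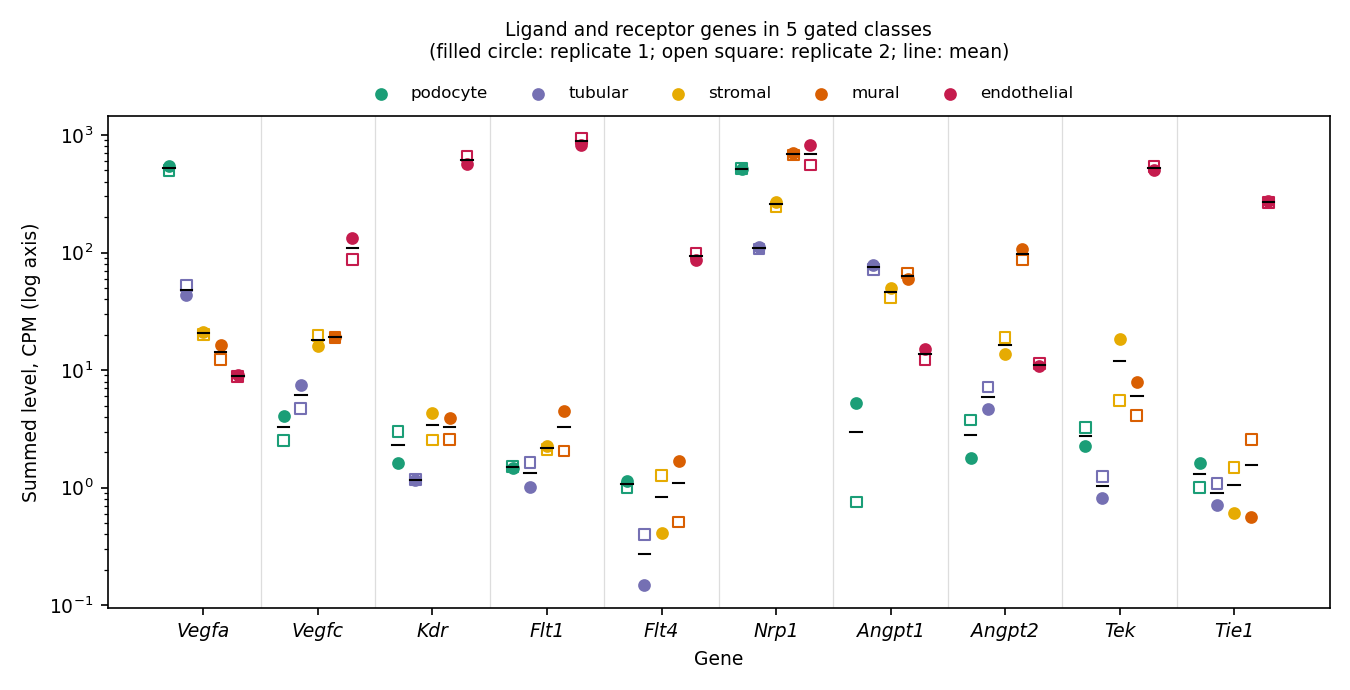
Summed level in CPM (log axis) of each of the 10 genes (x axis) in podocytes, tubular, stromal, mural and endothelial cells; filled circles are replicate 1, open squares replicate 2 and lines their mean. Kdr, Flt1, Flt4, Tek and Tie1 stand high in endothelial cells alone, Vegfa peaks in podocytes at 540 and 498 CPM, and Nrp1 exceeds 100 CPM in all 5 classes.

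The receptors Kdr, Flt1 and Flt4, and with them Tek and Tie1, marked the endothelium. Kdr, the main signalling receptor for VEGF-A, read 566 and 660 CPM in endothelial cells and at most 4.30 CPM in any other of the 5 classes. Flt1 read 827 and 934 CPM there and at most 4.51 CPM elsewhere. Flt4, the receptor for VEGF-C, read 87.1 and 98.5 CPM, with at most 1.69 CPM elsewhere. Each of these receptors was high in both endothelial libraries and low in the 8 others, with no overlap. Against the mean of the other 4 classes the log2 differences were 8.10 ± 0.13 for Kdr (adjusted p = 4.03e-11), 8.88 ± 0.14 for Flt1 (adjusted p = 3.14e-11) and 7.05 ± 0.19 for Flt4 (adjusted p = 9.36e-10; all ± SE).

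The angiopoietin receptor Tek read 508 and 536 CPM in endothelial cells, and Tie1 read 276 and 266 CPM. Outside endothelium Tie1 did not exceed 2.56 CPM. Tek was at 0.821 and 1.24 CPM in tubular cells, 2.28 and 3.27 CPM in podocytes, 7.89 and 4.10 CPM in mural cells, and 18.2 and 5.50 CPM in stromal cells. The stromal value was the one that differed most between libraries. The endothelial marker list summed to 80.7 and 76.2 CPM in the same cells. The source of the stromal Tek counts was not tested. Against the mean of the other classes, endothelial Tek was higher by 7.19 ± 0.23 (adjusted p = 3.18e-09) and Tie1 by 7.87 ± 0.16 (adjusted p = 1.21e-10; log2, SE).

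For these 5 receptors, the level outside endothelium lay under that in barcodes under 100 UMIs. In podocytes, tubular and mural cells the levels were between 1.57% and 20.4% of those in barcodes under 100 UMIs, and in stromal cells between 2.71% and 16.2% except for Tek at 44.9% and 18.2%. In endothelial cells they were 1003% to 1970% of that background. The receptors also occurred together in single cells: thinned to 3000 UMIs, 70.6% and 74.4% of endothelial cells held UMIs of at least 3 of Kdr, Flt1, Flt4, Tek and Tie1, and 0.994% and 0.660% held none. Of 358 and 188 podocytes, 1 and 0 held at least 2, and 95.8% and 97.3% held none. No tubular, stromal or mural cell held 2 or more. For the 1068 and 1012 tubular cells this allows a share of up to 0.281% and 0.296% (3 counts of the total, covering counting error only). It allows up to 0.714% and 1.11% of stromal cells and 2.11% and 2.5% of mural cells. Cells close to a second type had been left unassigned, so these counts depend in part on the gates.

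In endothelium 9 of 10 genes passed the test, as did 52.9% of all tested genes: 7 were higher (28.7%) and 2 lower (24.2%). Besides the receptors and Vegfc, Nrp1 was higher by 1.16 ± 0.11 (adjusted p = 8.25e-06), Vegfa lower at -2.48 ± 0.15 (adjusted p = 2.60e-07) and Angpt1 lower at -1.04 ± 0.23 (adjusted p = 0.00326). The call on Angpt1 was lost and its sign changed, to 0.21 (adjusted p = 0.576), when nephron progenitors, early nephron cells and macrophages joined the reference, and without replicate 1 it was -0.67. The median difference was 5.34 over the 10 genes and 0.017 over the 15424 genes tested.

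**Figure D2:**
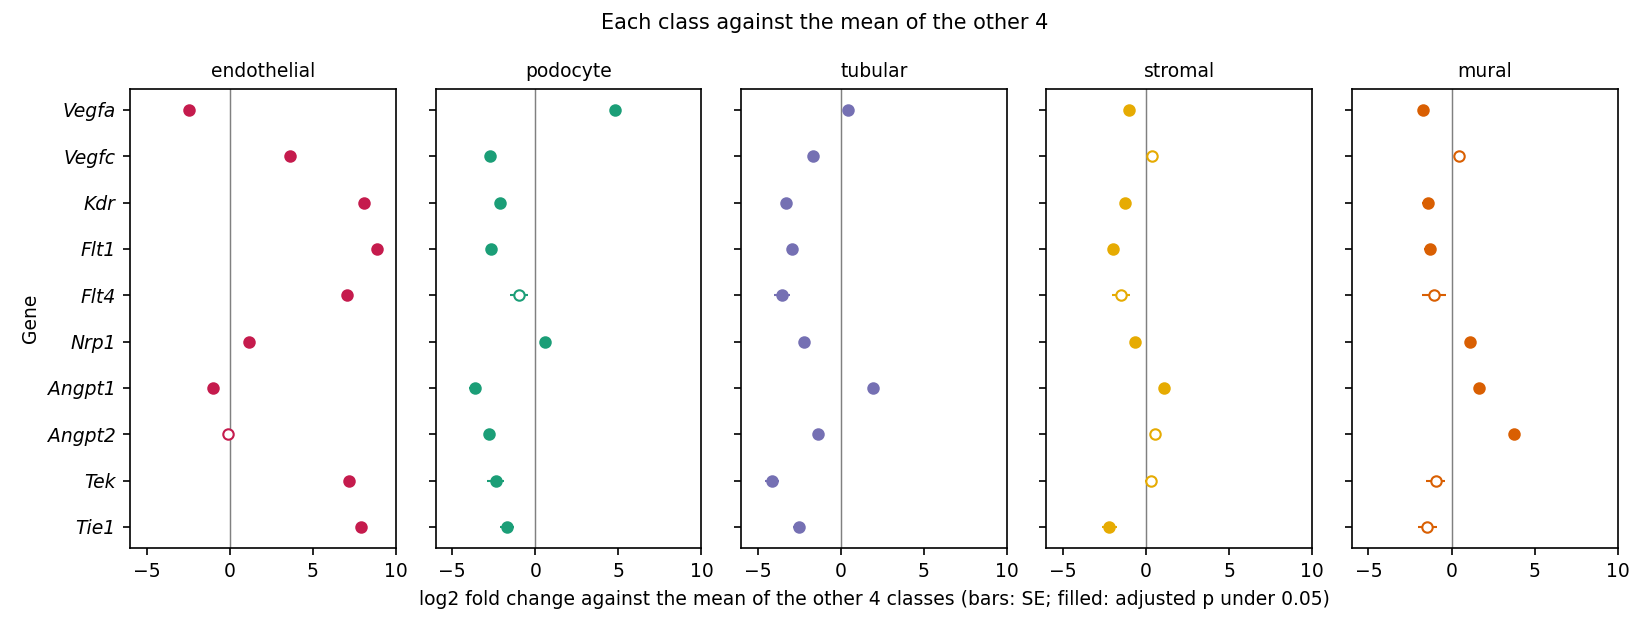
Log2 fold change of each gene (y axis) in each class against the mean of the other 4 classes (x axis, bars are SE, filled points have an adjusted p under 0.05). The 5 endothelial receptors lie between 7.05 and 8.88 in the endothelial panel, Vegfa at 4.78 in the podocyte panel and Angpt2 at 3.73 in the mural panel.

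Within the endothelium the receptors did not vary together. Tek was highest in Plvap-high cells, at 712 and 679 CPM, against 359 and 269 CPM in Plvap-low and 305 and 269 CPM in arterial-marked cells. Flt4 overlapped between Plvap-high cells (100.1 and 116 CPM) and Plvap-low cells (106 and 118 CPM) and was lower in arterial-marked cells (61.0 and 53.5 CPM). Kdr read 448 and 593 CPM in Plvap-high, 690 and 596 CPM in Plvap-low and 670 and 794 CPM in arterial-marked cells, and Tie1 read 267 and 266, 217 and 194, and 312 and 285 CPM in the same order. Flt1 read 808 and 966 CPM in Plvap-high, 699 and 596 CPM in Plvap-low and 926 and 927 CPM in arterial-marked cells. So Tek and Flt4 were low in arterial-marked cells without overlap with Plvap-high cells, and the Flt1 range of arterial-marked cells lay inside that of Plvap-high cells.

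Nrp1, the co-receptor, ran the opposite way to Tek, with 441 and 376 CPM in Plvap-high cells, 915 and 769 CPM in Plvap-low cells and 1295 and 870 CPM in arterial-marked cells. Between arterial-marked and Plvap-high cells 6 of 10 genes passed the test (15% of all tested genes), 4 higher (7.33%) and 2 lower (7.66%). Higher were Vegfc, Angpt1 (log2 2.02 ± 0.41 SE, adjusted p = 0.00194), Nrp1 (1.32 ± 0.18, adjusted p = 3.68e-05) and Vegfa (1.24 ± 0.24, adjusted p = 0.00103). Lower were Tek (-1.35 ± 0.26, adjusted p = 0.00120, and 0.0575 in a DESeq2 Wald test) and Flt4 (-0.98 ± 0.20, adjusted p = 0.00239). The Vegfa and Angpt1 levels in arterial-marked cells were only 15.7 and 13.2 CPM and 26.1 and 27.5 CPM, both under the level in barcodes under 100 UMIs. Between Plvap-low and Plvap-high cells 2 of 10 passed (1.67% of all tested genes): Nrp1 was higher (0.89 ± 0.18, adjusted p = 0.0144; 0.879%) and Tek lower (-1.31 ± 0.27, adjusted p = 0.0143; 0.793%). Without the library block neither passed, at nearly the same differences (0.89 for Nrp1, adjusted p = 0.0672, and -1.28 for Tek, adjusted p = 0.0621). The Tek call was also lost in the DESeq2 Wald test (-1.31, adjusted p = 0.208) and with free RNA subtracted by 6 kidney genes (-1.25, adjusted p = 0.0865).

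Lymphatic-marked endothelial cells numbered only 9 and 15, so they entered no test. They held Flt4 at 127 and 128 CPM, Kdr at 533 and 820 CPM, Tek at 455 and 638 CPM and Angpt2 at 73.8 and 22.5 CPM. Flt4 there lay above both libraries of each other endothelial group, by a small margin over the 118 CPM of Plvap-low cells in replicate 2. Ehd3, known from glomerular endothelium, read 316 and 578 CPM in them, against at most 356 CPM in any other endothelial group. Their name therefore gives the rule only.

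**Figure D3:**
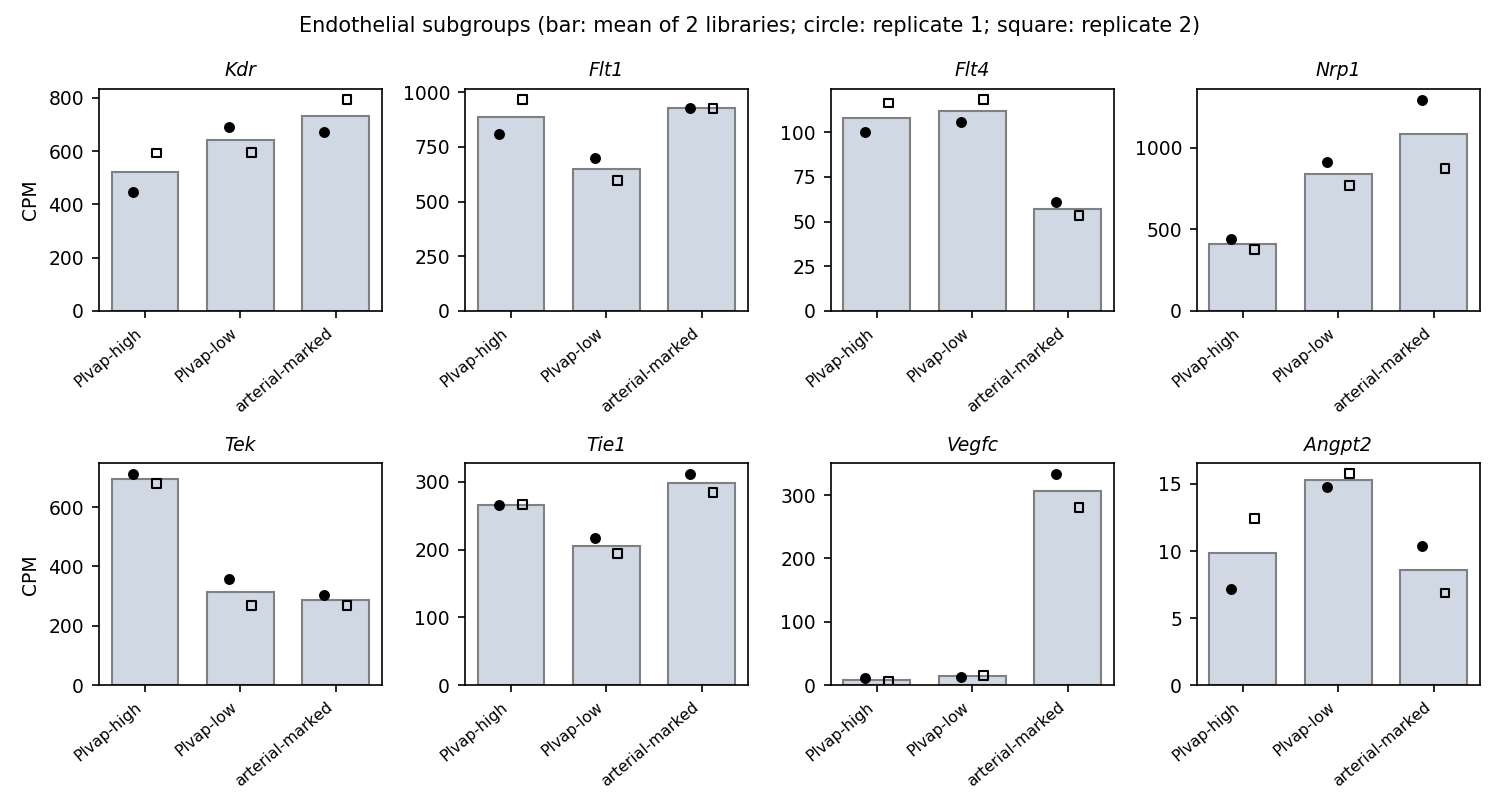
Levels in CPM (y axes start at 0) of 8 genes in Plvap-high, Plvap-low and arterial-marked endothelial cells (x axis); bars are means of 2 libraries, circles replicate 1 and squares replicate 2. Vegfc stands at 333 and 280 CPM in the arterial-marked bar against at most 15.8 CPM in the other bars, and Tek is highest in the Plvap-high bar.

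Beyond endothelium, Nrp1 was the one receptor gene found at a high level in many classes. It read 825 and 553 CPM in endothelial cells, 706 and 677 CPM in mural cells, 510 and 520 CPM in podocytes, 271 and 244 CPM in stromal cells and 110 and 107 CPM in tubular cells. The endothelial libraries differed the most and spanned the mural ones; podocyte, stromal and tubular cells followed without overlap between them, although replicate 2 of the endothelial cells was close to the podocytes. Nrp1 was higher in podocytes than in tubular cells by 2.27 ± 0.15 (adjusted p = 7.75e-07) and higher in mural than in stromal cells by 1.42 ± 0.15 (adjusted p = 0.000167; log2, SE). Macrophages, outside the 5 classes, held 441 and 294 CPM.

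Along the tubule Nrp1 was lowest in proximal cells, at 30.0 and 18.7 CPM, and intercalated cells, at 35.5 and 37.1 CPM. Loop or distal cells held 213 and 177 CPM and collecting duct cells 184 and 171 CPM, and these overlapped. Proximal cells stood 6.70-fold below the mean of loop or distal and collecting duct cells (log2 -2.74 ± 0.18 SE, adjusted p = 8.05e-11). In mural cells, the pericyte-marked group, defined by Kcnj8, Abcc9 and Higd1b, held 756 and 869 CPM, against 299 and 278 CPM in 13 and 17 smooth muscle-marked cells, too few for a test, and 567 and 489 CPM in 16 and 23 renin cells.

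The angiopoietins differed in the class where each was highest. Both were nevertheless called higher in mural cells against the mean of the other 4 classes. Angpt2 was a mural transcript, at 106 and 86.5 CPM in mural cells, 13.7 and 19.0 CPM in stromal cells, 10.8 and 11.4 CPM in endothelial cells, 4.70 and 7.18 CPM in tubular cells and 1.79 and 3.77 CPM in podocytes. Both mural libraries lay above all others. Against the mean of the other 4 classes mural cells were 13.3-fold higher (log2 3.73 ± 0.18 SE, adjusted p = 1.90e-07), and against stromal cells alone 5.95-fold higher (2.57 ± 0.25, adjusted p = 9.51e-05). All 3 mural groups held it: pericyte-marked cells read 104 and 97.8 CPM, smooth muscle-marked cells 69.6 and 81.7 CPM and renin cells 106 and 63.8 CPM. Thinned to 3000 UMIs, 19.0% and 15.8% of mural cells held an Angpt2 UMI, against 2.41% and 3.14% of endothelial cells; at this depth a cell without a UMI may still carry the transcript.

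Angpt2 lies inside Mcph1, a gene of the opposite strand, and the sources used here do not state whether strand was used in counting. Mcph1 read 43.9 and 45.1 CPM in mural cells, inside its stromal range of 36.6 and 45.9 CPM and under the 56.0 and 53.8 CPM of endothelial cells. Within mural cells it read 48.7 and 64.6 CPM in the pericyte-marked group and 0 and 11.1 CPM in the smooth muscle-marked group. Angpt1 overlaps the antisense gene Gm17473, which had 26 counts in all of the finer class sums. Nrp1 contains the microRNA gene Mir1903, which was not a counted feature.

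Angpt1, the activating ligand of TEK, was found in tubular, mural and stromal cells and hardly in podocytes. It read 78.8 and 71.8 CPM in tubular cells, 59.7 and 67.1 CPM in mural cells, 50.4 and 41.3 CPM in stromal cells, 15.1 and 12.3 CPM in endothelial cells and 5.22 and 0.754 CPM in podocytes. Tubular cells were above mural and mural above stromal cells in both libraries. Against the mean of the other 4 classes the log2 differences were 1.95 ± 0.18 in tubular cells (adjusted p = 4.59e-06), 1.67 ± 0.23 in mural cells (adjusted p = 0.000333) and 1.08 ± 0.21 in stromal cells (adjusted p = 0.00209), and podocytes stood at -3.65 ± 0.32 (adjusted p = 6.23e-06; all ± SE). In replicate 1 a single podocyte held 14 Angpt1 UMIs, and without that library the podocyte difference was -5.66. Mural and stromal cells did not pass the test against each other (0.48 ± 0.27, adjusted p = 0.29).

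Within the tubule, Angpt1 was higher in proximal cells, at 82.5 and 77.0 CPM, than in loop or distal cells, at 21.3 and 35.4 CPM, with collecting duct cells between, at 56.6 and 46.8 CPM. Proximal cells stood 1.24 ± 0.25 above the mean of loop or distal and collecting duct cells (adjusted p = 0.000371), and loop or distal cells at -1.08 ± 0.28 against the mean of proximal and collecting duct cells (adjusted p = 0.00459; log2, SE). Tubular cells with markers of several segments, which had no place in that comparison, held 159 and 130 CPM. The tubular cells were therefore also divided by the salt transporters Slc12a1, of the thick ascending limb, and Slc12a3, of the distal convoluted tubule, a division chosen after these values were seen and given with no test. Cells assigned to the proximal tubule were left out of the Slc12a1 group but not of the Slc12a3 group. Angpt1 read 214 and 152 CPM in 128 and 232 tubular cells with Slc12a3. It read 10.8 and 16.3 CPM in 290 and 346 cells with Slc12a1 and without Slc12a3. Nrp1 ran the other way between these groups, with 105 and 100.1 CPM against 215 and 194 CPM. Vegfa read 72.2 and 69.9 CPM against 45.0 and 58.1 CPM. The Slc12a3 cells thus had the highest Angpt1 of the groups with at least 20 cells in both libraries.

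**Figure D4:**
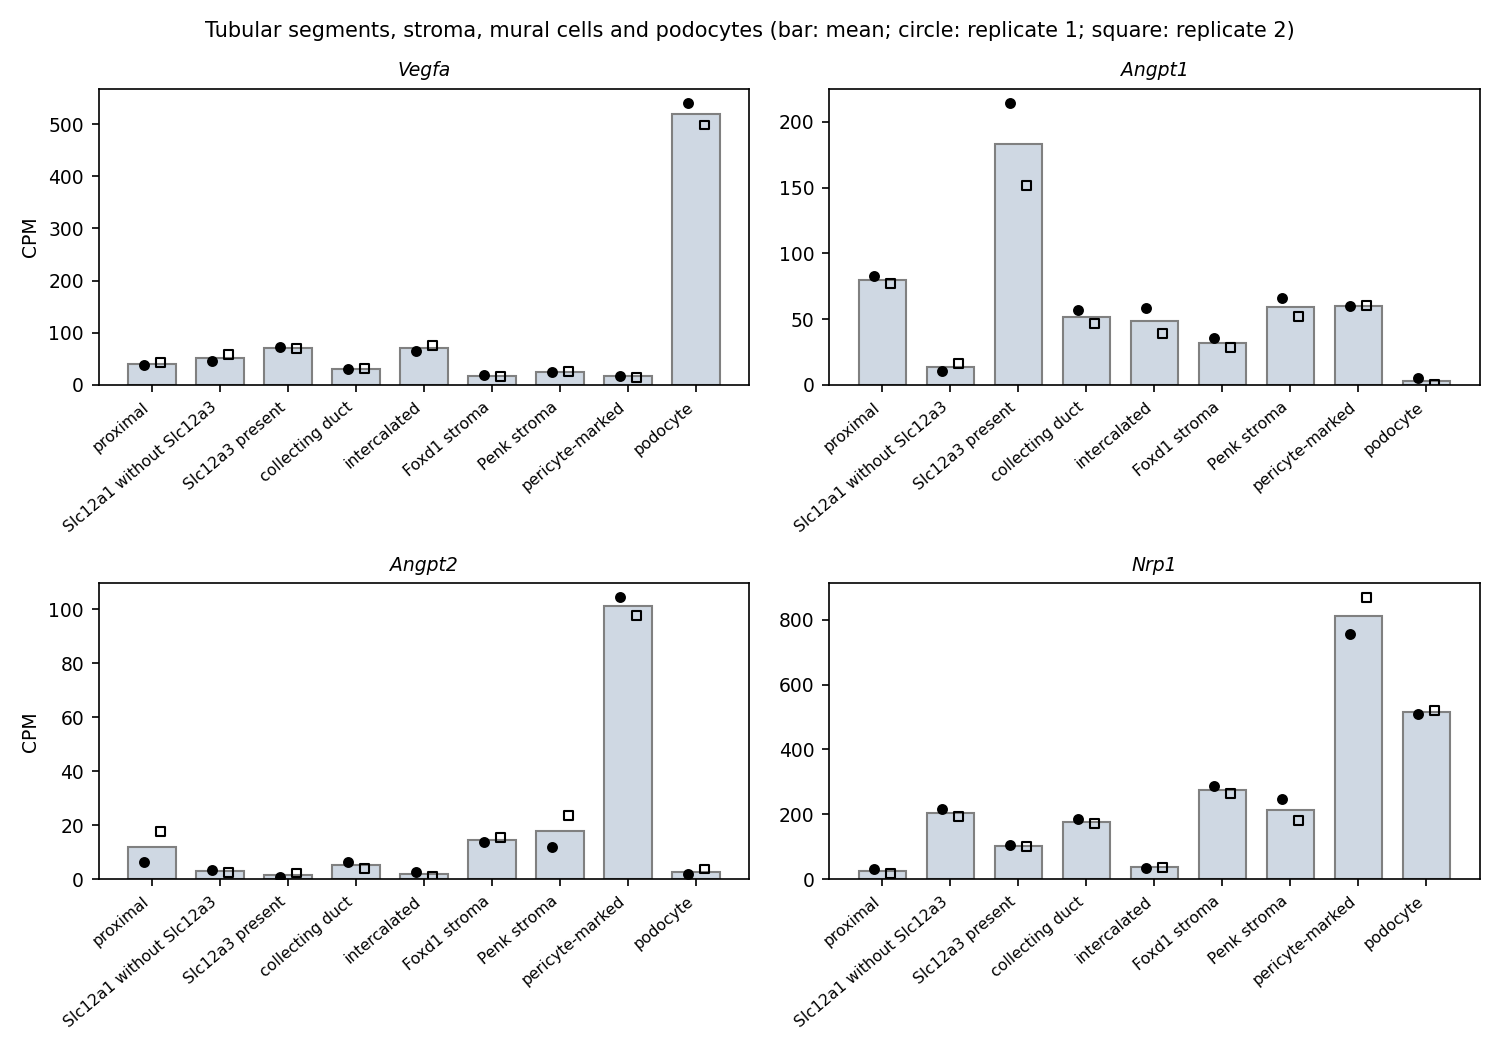
Levels in CPM (y axes start at 0) of Vegfa, Angpt1, Angpt2 and Nrp1 in tubular groups, stroma, pericyte-marked mural cells and podocytes (x axis); bars are means of 2 libraries, circles replicate 1 and squares replicate 2. Angpt1 is at 214 and 152 CPM in tubular cells with Slc12a3. It is at 10.8 and 16.3 CPM in those with Slc12a1, without Slc12a3 and not assigned to the proximal tubule. Angpt2 is at 104 and 97.8 CPM in pericyte-marked cells.

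The minor ligand levels of the proximal tubule differed from the mean of loop or distal and collecting duct cells too. Vegfc was higher there by 1.81 ± 0.29 (adjusted p = 2.87e-05) and Angpt2 by 1.87 ± 0.36 (adjusted p = 0.000169; log2, SE), both from low levels. The Angpt2 difference was 0.78 in replicate 1 alone and 2.76 in replicate 2 alone. Angpt2 read 6.26 and 17.8 CPM in proximal cells, with 94.7% and 82.9% of its counts in the top 10% of cells. In proximal cells 4 of 10 genes passed the test (48.7% of all tested genes), 3 higher (25.7%) and 1 lower (23%). In loop or distal cells 6 of 10 passed (32.7%), 3 higher (17.9%) and 3 lower (14.8%). In collecting duct cells 2 of 10 passed (44.3%), with Nrp1 higher (21.1%) and Vegfa lower (23.2%). The higher call on Flt1 in loop or distal cells rested on 1.68 and 2.43 CPM and was lost at 10% mitochondrial UMIs (0.36, adjusted p = 0.706).

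In stroma, cells with a Foxd1 UMI and cells with Penk but no Foxd1 did not differ in any of the 10 genes past the threshold (0 of 10 in edgeR and 0 in DESeq2, while in edgeR 1.55% of all tested genes were called, 0.537% higher and 1.01% lower). Nrp1 and Angpt1 had an unadjusted p under 0.05. Angpt1 read 35.3 and 28.5 CPM in Foxd1-positive and 66.3 and 51.7 CPM in Penk-positive cells without overlap, a difference of -0.87 ± 0.38 (adjusted p = 0.387). Nrp1 read 286 and 265 CPM against 247 and 182 CPM, also without overlap.

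The endothelium is part of the mean against which every other class was set, so a receptor called lower elsewhere repeats the endothelial difference. In podocytes 9 of 10 genes passed (53.7% of all tested genes): Vegfa (log2 4.78 ± 0.10 SE) and Nrp1 (0.60 ± 0.11) were higher (25.8%) and 7 were lower (27.9%). In tubular cells 10 of 10 passed (65.3%), with Angpt1 and Vegfa higher (33.5%) and 8 lower (31.8%). In stromal cells 6 of 10 passed (43.4%), with Angpt1 higher (24%) and 5 lower (19.4%). In mural cells 6 of 10 passed (28.6%), with Angpt2, Angpt1 and Nrp1 higher (16%) and 3 lower (12.6%). Flt1 was among the genes called lower in these 4 classes, and none of those 4 calls held when free RNA was subtracted by 6 kidney genes (adjusted p between 0.0647 and 0.808). The differences themselves went from -2.65 to -4.84 in podocytes, -2.93 to -2.88 in tubular cells, -1.99 to -2.96 in stromal cells and -1.30 to -0.78 in mural cells.

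The endothelium does not enter 2 direct comparisons. Between podocytes and tubular cells 7 of 10 passed (58%), 4 higher in podocytes (26.6%) and 3 lower (31.4%). Between mural and stromal cells 2 of 10 passed (14.6%), both higher in mural cells (8%), and 0 were lower (6.61%). The podocyte calls on Kdr (0.94, adjusted p = 0.0455) and Flt4 (2.04, adjusted p = 0.0170) over tubular cells came from levels of at most 3.02 CPM, and the call on Kdr was lost under 6 alternatives, with differences of 0.82 to 2.86 and adjusted p of 0.0531 to 0.411.

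The wider pathway was followed in 31 further genes, of which 30 were tested in the 5 classes. In endothelium 18 of 30 were higher and 7 lower (28.7% and 24.2% of all tested genes), with a median log2 difference of 1.89 against 0.017 over all genes. All 6 endothelial response genes, which count among the 18, were higher, a direction that follows from their choice as endothelial genes. Of these, Esm1, a secreted proteoglycan of sprouting endothelium, read 41.5 and 42.7 CPM against at most 0.409 CPM elsewhere (adjusted p = 1.32e-08). The apelin receptor Aplnr read 184 and 243 CPM, with a difference of 8.39 ± 0.17 (adjusted p = 1.23e-10). Ptprb, the phosphatase that restrains TEK, read 590 and 603 CPM and was higher by 8.67 ± 0.14 (adjusted p = 3.24e-11). Of the 4 other ligands 0 were higher and 2 lower in endothelium.

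In mural cells 2 of the 4 other ligands were higher: Pgf, placental growth factor, which binds FLT1, at 37.7 and 26.6 CPM (log2 5.0 ± 0.29, adjusted p = 5.35e-07), and Vegfd, a ligand of FLT4, at 36.0 and 62.5 CPM (4.08 ± 0.20, adjusted p = 2.13e-07). In podocytes 4 of the 30 were higher and 15 lower (25.8% and 27.9% of all tested genes). The repulsive semaphorin Sema3e, whose receptor is PLXND1, read 402 and 318 CPM there and at most 7.78 CPM in the other 4 classes (7.91 ± 0.24, adjusted p = 1.92e-09), and the adaptor Dok2 read 33.6 and 50.5 CPM (5.26 ± 0.23, adjusted p = 3.84e-08). In tubular cells 6 of the 30 were higher and 16 lower (33.5% and 31.8% of all), with Sema3c, a semaphorin that binds neuropilins, at 419 and 243 CPM (3.56 ± 0.14, adjusted p = 8.05e-09). In stromal cells 6 were higher and 9 lower (24% and 19.4%), with Pdgfb, the platelet-derived growth factor that recruits mural cells, at 0.409 and 0.212 CPM against 150 and 131 CPM in endothelium. In mural cells 8 of the 30 were higher and 6 lower (16% and 12.6%). Directly compared, 9 of the 30 were higher and 7 lower in podocytes than in tubular cells (26.6% and 31.4%), and 8 were higher and 6 lower in mural than in stromal cells (8% and 6.61%).

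Along the tubule 29 of the pathway genes were tested. In proximal cells 7 were higher and 5 lower, shares near the 25.7% and 23% of all tested genes. The peptide ligand Apln read 7.03 and 14.1 CPM there against at most 0.418 CPM in loop or distal and collecting duct cells (log2 5.17 ± 0.49, adjusted p = 8.35e-08), and the neuropilin Nrp2 read 9.77 and 12.8 CPM (3.36 ± 0.30, adjusted p = 9.33e-09), opposite in direction to Nrp1. In loop or distal cells 6 were higher and 2 lower (17.9% and 14.8% of all), with Cxcr4 at 7.16 and 6.77 CPM (2.90 ± 0.32, adjusted p = 6.52e-07). In collecting duct cells 7 were higher and 7 lower (21.1% and 23.2%).

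In the endothelial groups, 8 of 29 tested pathway genes were higher and 6 lower in arterial-marked than in Plvap-high cells (7.33% and 7.66% of all tested genes). The chemokine receptor Cxcr4 read 27.4 and 14.6 CPM against 2.91 and 1.76 CPM (3.09 ± 0.34, adjusted p = 3.14e-06), Aplnr 60.1 and 77.9 CPM against 284 and 327 CPM (-2.23 ± 0.23, adjusted p = 1.45e-06), and the semaphorin Sema3d 15.9 and 12.6 CPM against 90.1 and 116 CPM (-2.94 ± 0.37, adjusted p = 1.21e-05). Between Plvap-low and Plvap-high cells 3 of 29 were higher and 1 lower (0.879% and 0.793%). Esm1 read 67.1 and 102 CPM in Plvap-low against 16.1 and 24.1 CPM in Plvap-high cells (1.90 ± 0.22, adjusted p = 0.000542), and the Notch ligand Dll4 65.9 and 53.6 CPM against 25.5 and 26.1 CPM (1.09 ± 0.26, adjusted p = 0.0373). Of the 29, 0 passed between Foxd1-positive and Penk-positive stroma, where only 1.55% of all tested genes did.

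Over 28 class-by-library sums and 12131 genes, the genes whose log2(CPM + 1) pattern was most like each receptor were, by Pearson's r, Sox18 (0.987), Myct1 and Ccm2l for Kdr, Ccm2l (0.983), Kdr and Dipk2b for Flt1, Nova2 (0.981), Gpihbp1 and Btnl9 for Flt4, Ifi44 (0.967), Cd34 and Shank3 for Tek, and Adgrl4 (0.987), Ccm2l and Exoc3l for Tie1. For Vegfa they were Dag1 (0.916), 1110065P20Rik and Kank1, and for Nrp1 Hip1 (0.929), Rgs3 and Fry. The closest gene was Hif3a (0.850) for Angpt1, Sept7 (0.902) for Angpt2 and Frmd3 (0.794) for Vegfc. Genes are not independent replicates, and the sums of a library share its depth, so these values are a description. Reads from the 3′ end are counted per gene, so soluble and membrane forms of Flt1 and the splice forms of Vegfa were not told apart.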

How the data were processed

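Droplet 3′ single-cell libraries of newborn mouse kidney were deposited by the authors as unfiltered UMI counts per gene and barcode, made with Cell Ranger 6.0.1 against mm10 per the submitters' processing notes; the file headers name version 4, and the annotation and use of strand are not given in the sources used here. The libraries held 2761081 and 2545815 barcodes with 200331687 and 173166168 UMIs, of which 73.1% and 74.5% fell in cells. From the deposited counts, CPM were computed here. The genes and lists were chosen with earlier results of these data known. The named genes were all 10 members, and of the other pathway genes at most 3 per comparison, by the largest log2 fold change among calls of 1 direction in both libraries. Cell types came from 106 marker genes on 15 lists (1 marker was absent from the feature list). Cells close to a second type were left unassigned, which also removes many doublets, and no doublet caller was used for the main values. UMIs were summed per class and library; classes needed 20 cells in each library. edgeR 4.0.16 (quasi-likelihood F test, TMM, library as block, because both libraries hold every class) was fitted in R 4.3.3 to 5 classes (10 sums, 4 residual degrees of freedom, 15519 genes after filterByExpr) and to 14 finer classes (28 sums, 13 degrees, 16492 genes). Genes used as markers were left out of the adjustment, over 15424 and 16391 genes. The procedure was tested on simulated data. SD and intervals cover 2 libraries and counting error only. DESeq2 1.42.0, other cell filters, gates and normalizations, Scrublet and subtraction of free RNA were alternatives. RefSeq promoters (GRCm38.p6, the build of mm10) were matched by symbol for 8 of 10 genes; Angpt1 and Angpt2 had no entry.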

Additional observations from a re-analysis of the deposited data

Results flagged for a closer look

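In data outside the comparisons, Angpt1 read 159 CPM in replicate 1 and 130 CPM in replicate 2 in tubular cells that carried markers of several segments (184 and 209 cells), above its 33.8 and 31.9 CPM in barcodes under 100 UMIs. Thinned to 3000 UMIs, 33.2% and 25.4% of these cells held an Angpt1 UMI. Vegfc read 40.2 CPM and 23.9 CPM in nephron progenitors (720 and 395 cells), a class outside the comparisons, against 18.8 and 9.82 CPM in barcodes under 100 UMIs. The top 10% of those progenitors held 75.3% and 75.9% of the Vegfc counts, and the highest cell held 58. Neither result has a test.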

How the results depend on the processing

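Of 69 calls on single genes, 29 kept their direction and their side of the threshold under every alternative that had a test. Kdr, Flt1, Flt4, Tek and Tie1 in endothelium and Vegfa in podocytes, each against the mean of the other classes, were among them. How free RNA was estimated changed the most calls. With its share set by haemoglobin, the number of the 10 genes called went from 9 to 4 in podocytes, 10 to 5 in tubular cells, 6 to 0 in stromal cells, 6 to 3 in mural cells, 7 to 2 between podocytes and tubular cells, 2 to 0 between mural and stromal cells, 6 to 2 in loop or distal cells, 2 to 1 in collecting duct cells, 2 to 1 between Plvap-low and Plvap-high cells and 6 to 3 between arterial-marked and Plvap-high cells. Under it the signs changed for Tie1 in podocytes (0.067), Vegfa (1.30) and Kdr (0.63) in stromal cells and Vegfa in arterial-marked cells (-0.00076). Of 32 calls lost there with the direction kept, 21 had a difference at least as large as before, among them Vegfa between podocytes and tubular cells (3.46 to 3.48) and Angpt2 between mural and stromal cells (2.57 to 2.92); the proximal count was 4 under both, though Angpt1 was lost there (1.29, adjusted p = 0.140). In replicates 1 and 2 the haemoglobin setting took 94.3% and 62.2% of Plvap-low counts as free RNA. It took 79.9% and 39.97% of arterial-marked, 24.5% and 25.3% of Plvap-high and 13.2% and 57.1% of mural counts. The values of these groups under it rest on what was left. The share of all genes called under it is not given here, so a general loss of calls was not told apart. Of endothelial counts it took 54.3% and 30.8%, above the 12.7% and 10.8% that Vegfa allows. A second share, set by the lowest of 6 kidney genes and chosen after seeing the data, took 2.41% and 2.87%; under it 61 of the 69 calls stayed, and the Plvap-low count went from 2 to 1. At 10% mitochondrial UMIs the loop or distal count went from 6 to 3. With no replicate block the Plvap-low count was 0, and it was 1 in a DESeq2 Wald test; the block pairs the classes of 1 library and changed no other count by over 1.5 times. Adding 3 classes to the fit reversed Angpt1 in endothelium (0.21). Other causes were not tested. Leaving out a library gave values with no test, and 16 such values moved by more than the spread between libraries; the Angpt1 difference of podocytes from tubular cells was -6.55 without replicate 1, where 1 cell held 14 UMIs. Smooth muscle-marked against pericyte-marked mural cells was not run, with 13 and 17 cells of the first.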

Other observations

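Renin cells, defined by at least 1000 CPM of Ren1, numbered 16 and 23 and entered no test. They held Angpt1 at 84.2 and 123 CPM and Angpt2 at 106 and 63.8 CPM, so both angiopoietins were present, while pericyte-marked cells held Angpt1 at 59.7 and 60.3 CPM. In the early nephron (125 and 48 cells), Flt1 read 9.71 and 4.08 CPM, above its level in podocytes but under the 64.6 and 47.4 CPM of barcodes under 100 UMIs. In macrophages (135 and 68 cells), Nrp1 read 441 and 294 CPM, and Kdr, Flt1, Flt4, Tek and Tie1 each read at most 4.46 CPM.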
